A study of Mus musculus with 2 samples.

Results

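The miR-23/27/24 miRNAs are made from a pair of gene clusters, here called the a cluster (Mir23a, Mir27a and Mir24-2) and the b cluster (Mir23b, Mir27b and Mir24-1). The names were chosen by identity and not by any measured value: both arms of the miR-23a, miR-23b, miR-27a and miR-27b hairpins, and mmu-miR-24-3p, which both clusters encode. All 9 names were recorded in both libraries, out of 1477 miRNA names recorded in either. Counts came from skin keratinocytes of mouse grown in a low-calcium medium, in which a fusion of desmoplakin (Dsp) with the biotin ligase BirA was expressed exogenously and which received biotin. Biotin-labelled proteins, with the RNA held by them, were captured on streptavidin, with the aim of reading miRNAs carried by Argonaute proteins near the desmosome. Whether the counted miRNAs were held by Argonaute or lay near the desmosome was not tested here. The series has 1 group of 2 replicate libraries, with 3776893 miRNA counts in replicate 1 and 4122955 in replicate 2. No uncaptured or unlabelled library was analysed here, so the values are levels in the captured RNA and not enrichment. The labels do not say whether the replicates came from separate cultures, so the spread between them may be technical.

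Each cluster is a group of hairpins close enough together to be cut from 1 primary transcript by Drosha, after which Dicer frees a duplex from each hairpin. One strand of the duplex, the guide, usually stays in Argonaute and directs it to messenger RNAs that pair with its seed (bases 2 to 8), while the other strand, the passenger, is mostly lost. For miR-23, miR-27 and miR-24 the guide is the 3p strand. These miRNAs are known for roles in blood vessel growth and lipid metabolism, and in skin miR-24 is known for acting on the actin cytoskeleton during keratinocyte differentiation.

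Labelled cell type and markers were compared first. All 7 epithelial miRNAs of a marker list (miR-205-5p, miR-203-3p and the miR-200 family) were recorded in both libraries, with a summed level of 105854 and 106177 CPM (counts per 1000000 miRNA counts). Both endothelial markers, miR-126a-3p and miR-126a-5p, were also recorded, and their sum was 515.5 CPM for replicate 1 and 426.4 CPM for replicate 2. Endothelial cells are another cell type in which the miR-23/27/24 clusters are studied, and the part of such cells in the levels below was not tested. The lists for blood, mesenchymal, muscle, neural and liver miRNAs each summed to between 4.50 and 113.9 CPM in either library. Of their markers, 2 of 6 for blood, 3 of 5 for mesenchyme, 1 of 3 for muscle, 1 of 2 for neural tissue and 1 of 1 for liver were recorded in both libraries.

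The mature sequences of the guide strands are shown because the a to b comparison turns on how little the copies differ. They run 5′ to 3′ from RefSeq (GRCm38.p6), with the seed in capitals; miR-23b-3p is given by name only.
miR-23a-3p: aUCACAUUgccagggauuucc
miR-27a-3p: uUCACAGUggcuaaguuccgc
miR-27b-3p: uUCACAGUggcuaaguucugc
miR-24-3p: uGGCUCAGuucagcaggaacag
The miR-27 guides share 1 seed and differ by a single substitution, C19U, counted from 1 at the 5′ end of miR-27a-3p and read from miR-27a-3p to miR-27b-3p. A read that ends before base 19 fits both names equally, and how the authors assigned such reads is not stated in the sources used here. No sequence of miR-23b-3p was available here, so how far short reads separate the miR-23 guides was not checked.

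The miR-23 and miR-27 passengers differ at several bases between the copies, which makes them easier to tell apart in short reads than the miR-27 guides.
miR-23a-5p: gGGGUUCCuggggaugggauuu
miR-23b-5p: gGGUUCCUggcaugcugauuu
miR-27a-5p: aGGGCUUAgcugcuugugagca
miR-27b-5p: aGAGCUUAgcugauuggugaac
miR-24-2-5p: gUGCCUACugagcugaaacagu
miR-24-1-5p: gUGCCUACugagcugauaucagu
By edit distance (substitutions, insertions and deletions), the miR-27 passengers are 5 changes apart, the miR-23 passengers 5 and the miR-24 passengers 2. The changes in that last pair lie toward the 3′ end, so a short read can fit both names. The last pair matters because the guide miR-24-3p is the same from either cluster, so that miR-24-2-5p (a cluster) and miR-24-1-5p (b cluster) are the names that separate the miR-24 hairpins. Among the guides shown, miR-27a-3p, miR-27b-3p and miR-24-3p begin with U and miR-23a-3p with A, while the passengers begin with G or A. For comparison, 40.6% of the 1231 recorded names with a sequence in the table begin with U.

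The hairpins of miR-27 are shown whole, with both mature arms in capitals, because this pair had the largest difference between the clusters among the guides.
Mir27a: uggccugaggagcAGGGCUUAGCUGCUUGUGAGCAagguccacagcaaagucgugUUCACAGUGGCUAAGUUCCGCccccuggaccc
Mir27b: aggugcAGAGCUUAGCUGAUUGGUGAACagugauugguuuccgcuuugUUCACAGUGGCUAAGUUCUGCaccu
The Mir27a hairpin is 87 bases long and that of Mir27b 73 bases.

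Both clusters keep the order miR-23, miR-27, miR-24 on the plus strand. The submitters' processing notes name mm10, the build that RefSeq calls GRCm38. The a cluster lies at chr8:84208518-84208921 and spans 404 bases, with gaps of 79 and 56 bases between its hairpins. It overlaps no protein-coding gene in the RefSeq gene table, and the nearest is Zswim4, 2020 bases away on the higher side. The b cluster lies at chr13:63300484-63301275 and spans 792 bases, with gaps of 154 and 423 bases. It lies inside the annotated span of the protein-coding gene Aopep, and the gene table gives no exons, so an intronic or exonic place is not stated here. Each miR-24 hairpin has an annotated miR-3074 hairpin on the opposite strand.

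Together the 9 names held 14.3% ± 0.0345 (SD, n = 2) of the miRNA counts. The share was 14.3% in replicate 1, with a Wilson 95% interval of 14.26% to 14.33%, and 14.2% in replicate 2, with one of 14.21% to 14.28%. Nearly all of this came from the 5 guides. The 4 passengers of miR-23 and miR-27 together had 281 counts in replicate 1 and 230 in replicate 2, or 0.00744% and 0.00558% of the total. These intervals cover counting error only, since reads amplified by PCR without molecular identifiers are not independent molecules.

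mmu-miR-27a-3p, the miR-27 guide of the a cluster, had 251627 counts in replicate 1 and 276047 in replicate 2, or 66623 and 66954 CPM. It was the third most abundant name in both libraries and made up 46.8% ± 0.273 of the 5 guides' counts. mmu-miR-23a-3p, the miR-23 guide of the same cluster, had 101086 and 105663 counts, or 26764 and 25628 CPM. mmu-miR-23b-3p, its copy in the b cluster, had 97769 and 104466 counts, or 25886 and 25338 CPM. The miR-23 guides stood next to each other in both libraries, at ranks 7 and 8 and then 8 and 9, and each was the nearest name in level to the other (distance 0.051, the root of the summed squared differences in log2 CPM over the 2 libraries).

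mmu-miR-24-3p, the guide encoded by both clusters, had 45173 and 51342 counts, or 11960 and 12453 CPM. mmu-miR-27b-3p, the miR-27 guide of the b cluster, had 43810 and 49444 counts, or 11599 and 11992 CPM. The name nearest to each of them in level was miR-183-5p, a miRNA of sensory and epithelial cells, with 11881 and 12221 CPM (distance 0.029 from miR-24-3p and 0.044 from miR-27b-3p, on the same measure). For miR-27a-3p the nearest was miR-16-5p, a cell-cycle miRNA, with 112422 and 111002 CPM (distance 1.05 on that measure). Ligation and amplification can favour one sequence over another, so levels of different names compare reads and not molecules.

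The passengers lay far lower. mmu-miR-27a-5p had 138 counts in replicate 1 and 76 in replicate 2, and mmu-miR-27b-5p had 105 and 77. mmu-miR-23b-5p had 26 and 60 counts, and mmu-miR-23a-5p had 12 and 17. A count of 0 allows up to 3 counts, so that all 4 were above that limit, which is 0.794 CPM for replicate 1 and 0.728 CPM for replicate 2. The lowest guide, miR-27b-3p, had 317.5 times the counts of the highest of these 4 passengers in replicate 1 (miR-27a-5p) and 642.1 times in replicate 2 (miR-27b-5p). The miR-24 passengers, given below, had more counts than these 4.

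The order of the guides was the same in both libraries: miR-27a-3p, miR-23a-3p, miR-23b-3p, miR-24-3p and miR-27b-3p. The closest neighbours were miR-23a-3p over miR-23b-3p, with a ratio of 1.02 ± 0.0159, and miR-24-3p over miR-27b-3p, with 1.03 ± 0.00514 (SD, n = 2). Both ratios lay above 1 by more than 1 SD, and in each library the exact 95% interval lay above 1. miR-23b-3p had 2.10 ± 0.0917 times the counts of miR-24-3p. Over 2 values the smallest p-value of an exact two-sided sign-flip test is 0.5, so these differences are set against the SD only. Among the passengers, miR-27a-5p and miR-27b-5p changed places between the libraries, and miR-27b-5p over miR-23b-5p had a ratio of 4.04 in replicate 1 and 1.28 in replicate 2, so these neighbours did not differ beyond their spread. miR-23b-5p was above miR-23a-5p in both, by 2.17-fold and 3.53-fold.

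**Figure D1:**
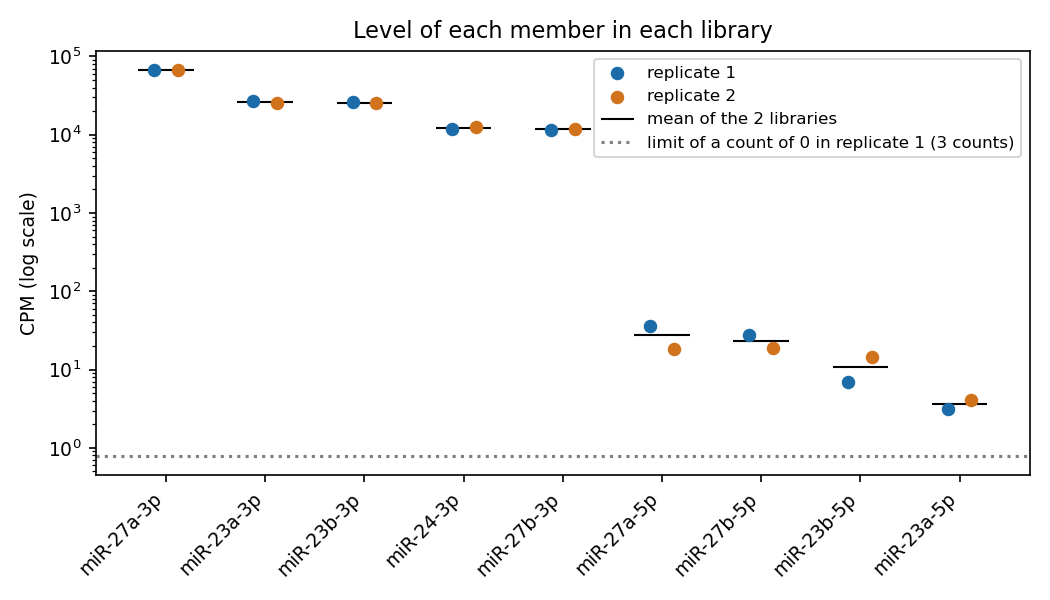
Level of the 9 names on a log axis in CPM, with 1 point per library and a bar at the mean of the 2 libraries; the dotted line is the limit that a count of 0 allows in replicate 1 (0.794 CPM). The guides sit between 11599 and 66954 CPM with nearly overlapping points, and the passengers between 3.18 and 36.5 CPM with wider gaps between the libraries.

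Over miR-23 and miR-27 guides together, the a cluster had 2.49 times the counts of the b cluster in replicate 1 (exact 95% interval 2.48 to 2.51) and 2.48 times in replicate 2 (2.47 to 2.49). In the counts as assigned by the authors, the excess was carried by miR-27. Counts of miR-27a-3p were 5.74 times those of miR-27b-3p in replicate 1 (5.69 to 5.80) and 5.58 times in replicate 2 (5.53 to 5.64), a mean of 5.66 ± 0.114 (SD, n = 2). For the miR-23 guides the same ratio was 1.03 (1.02 to 1.04) and 1.01 (1.003 to 1.020). The miR-27 ratio was thus 5.56 times the miR-23 ratio in replicate 1 (95% interval of this ratio of ratios 5.48 to 5.63) and 5.52 times in replicate 2 (5.45 to 5.59). The difference between these neighbouring hairpins was about as large in either library, with a mean of 5.54 ± 0.0250. The miR-23 and miR-27 ratios both rest on how any reads that fit both copies were assigned, which was not tested.

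Within each cluster the order of miR-23 and miR-27 was opposite. In the a cluster miR-27a-3p exceeded miR-23a-3p by 2.55 ± 0.0872 times, while in the b cluster miR-27b-3p had 0.461 ± 0.0178 times those of miR-23b-3p (SD, n = 2). miR-24-3p, summed over its pair of genes, had 0.236 ± 0.0121 times the counts of both miR-23 guides and 0.155 ± 0.00342 times those of both miR-27 guides. Summed over both clusters, miR-24 thus gave fewer guide counts than miR-23 or miR-27 in both libraries, and its counts cannot be split by cluster.

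The passengers gave other ratios. miR-24-2-5p, from the a cluster, had 1189 and 1213 counts, and miR-24-1-5p, from the b cluster, had 358 and 528. Their ratio was 3.32 in replicate 1 (exact 95% interval 2.95 to 3.75) and 2.30 in replicate 2 (2.07 to 2.55). The a passenger thus had more counts in both libraries, with intervals that did not overlap each other. Short reads can fit both names, and passenger counts do not show how much guide each miR-24 hairpin gave. Set against the miR-23 guides, this ratio was 3.21 times higher in replicate 1 (2.85 to 3.62) and 2.27 times in replicate 2 (2.05 to 2.52).

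For miR-27 the passengers were nearly level where the guides were not. miR-27a-5p had 1.31 times the counts of miR-27b-5p in replicate 1 (1.01 to 1.71) and 0.987 times in replicate 2 (0.709 to 1.37). The a to b ratio of the miR-27 guides was 4.37 times that of the miR-27 passengers in replicate 1 (3.39 to 5.63) and 5.66 times in replicate 2 (4.12 to 7.77). miR-23a-5p had 0.462 times the counts of miR-23b-5p in replicate 1 (0.212 to 0.948) and 0.283 times in replicate 2 (0.155 to 0.492), so here the b copy was higher in both libraries, at few counts. In all, 3 such ratios of ratios were computed, and every interval lay above 1 in both libraries.

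**Figure D2:**
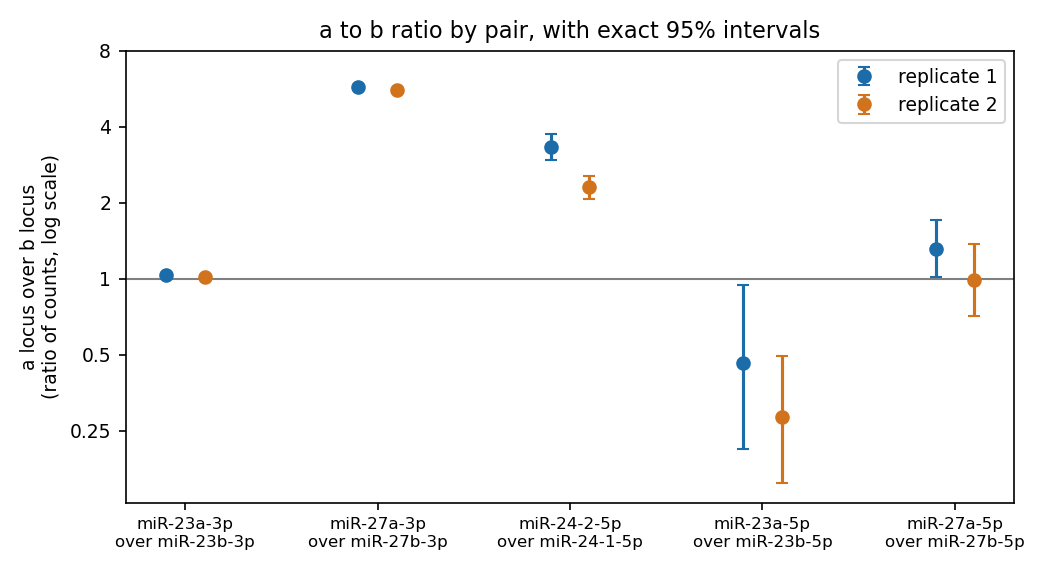
Counts of the a-cluster name over the b-cluster name on a log axis, for the guides of miR-23 and miR-27 and the passengers of miR-24, miR-23 and miR-27, with 1 point per library and exact 95% intervals from counting error. The miR-23 guides sit at 1.03 and 1.01, the miR-27 guides at 5.74 and 5.58, and the miR-27 passengers at 1.31 and 0.987.

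To place the guide ratios, 24 pairs of names were found that differ only in the letter a or b and had at least 100 counts for each name in each library. Some of these pairs lie in 1 cluster and others on different chromosomes. At least a 2-fold difference in the same direction in both libraries was present in 16 of them (66.7%), so the miR-27 difference alone is not unusual. The median difference was 3.22-fold. By size of the difference the miR-27 guides ranked 11 of 24 and the miR-23 guides 24 of 24. Among the pairs with both sequences in the table, 2 were a single edit apart, miR-27a-3p with miR-27b-3p and miR-19a-3p with miR-19b-3p, and the latter had the b name higher, by 3.78-fold.

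**Figure D3:**
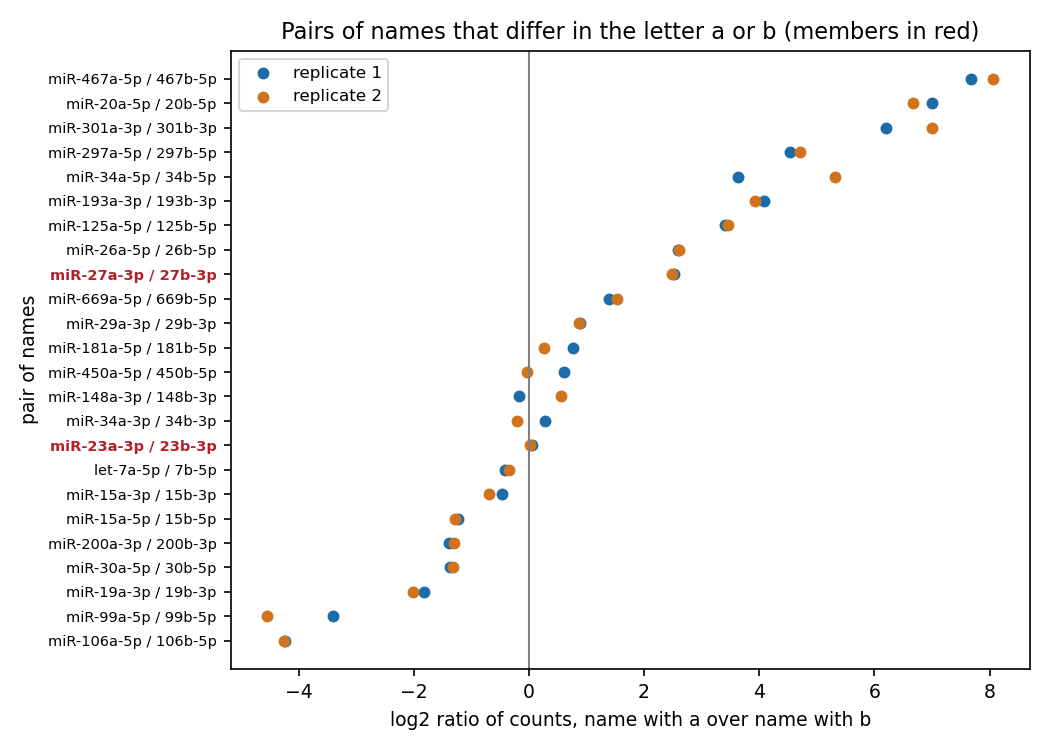
Log2 ratio of the name with the letter a over the name with the letter b for 24 pairs, with 1 point per library, in order of the mean. The miR-27 guides (mean log2 ratio 2.50) are among the pairs with the a name higher, and the miR-23 guides (0.032) have the smallest difference.

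All 4 hairpins gave nearly all counts from the 3p arm. The passenger's share was smallest for miR-23a, with 0.0119% in replicate 1 (exact 95% interval 0.00613% to 0.0207%) and 0.0161% in replicate 2 (0.00937% to 0.0258%). For miR-23b the passenger held 0.0266% (0.0174% to 0.0390%) and 0.0574% (0.0438% to 0.0739%). The miR-27a passenger held 0.0548% (0.0461% to 0.0648%) and 0.0275% (0.0217% to 0.0344%). For miR-27b it held 0.239% (0.196% to 0.289%) and 0.155% (0.123% to 0.194%), the highest share of the 4 hairpins in both libraries, with intervals above those of the other 3.

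The order of miR-23b and miR-27a changed between the libraries, so they could not be ranked. As a ratio of guide to passenger, miR-23b gave 3760 in replicate 1 and 1741 in replicate 2, and miR-27a gave 1823 and 3632. For miR-27b the ratio was 417.2 and 642.1, and for miR-23a 8424 and 6215. The miR-27b ratio was the lowest in either library. The miR-24 hairpins were less one-sided: miR-24-3p had 29.2 times the summed counts of miR-24-1-5p and miR-24-2-5p in replicate 1 (27.8 to 30.7) and 29.5 times in replicate 2 (28.1 to 30.95).

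Arm use was tested in the 164 hairpins whose 3p and 5p names are alike but for the arm. Both arms had to be recorded in at least 1 library and sum to at least 100 counts per library. An exact binomial test was run in each library, with Benjamini-Hochberg adjustment. Hairpins with an arm recorded in neither library were left out, so the most one-sided hairpins can be missing. The shares, median and ranks below hold among the 164 only. The 3p arm dominated in both libraries in 54 of them (32.9%) and the 5p arm in 96 (58.5%). All 4 miR-23 and miR-27 hairpins were among the 54. The median hairpin had 22.8% of its counts in the 3p arm. In order of the mean 3p share, miR-23a was at rank 1 and miR-27b at 8 of 164, with miR-23b and miR-27a, whose order changed between the libraries, at 4 and 5. miR-23a was first in neither library taken alone, since in each another hairpin had 100% of its counts in the 3p arm.

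**Figure D4:**
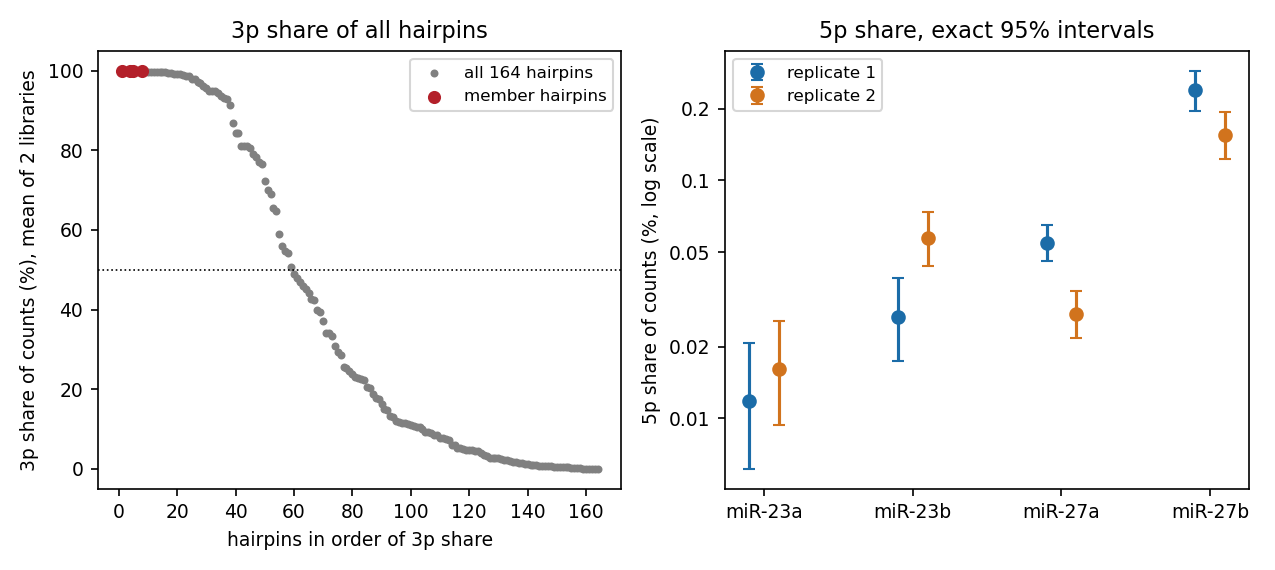
Left, the 3p share of counts in percent (mean of 2 libraries) for the 164 hairpins tested, whose arms have matching names and were both recorded, in descending order, with the 4 hairpins of miR-23 and miR-27 in red at ranks 1 to 8. Right, the 5p share of these hairpins on a log axis, with 1 point per library and exact 95% intervals; miR-27b is the highest at 0.239% and 0.155%.

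The libraries were then compared name by name with an exact binomial test on reads against the share given by the totals. The test covered the 1002 names that averaged at least 10 counts. This compares libraries of 1 group and not conditions. At an adjusted p-value of 0.05, 70.6% of the names tested differed: 36.2% were higher in replicate 2 and 34.3% lower. Among the 9 names 7 differed, 3 higher and 4 lower in replicate 2, a share near the background. The median absolute log2 ratio was 0.063 over the 9 names and 0.83 over all names tested, but the guides are among the most abundant names and the ratio shrinks with abundance.

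For the guides the differences were small. miR-23a-3p was lower in replicate 2 with a log2 ratio of -0.063 (exact 95% interval -0.075 to -0.050; exact binomial adjusted p = 1.15e-21), and miR-24-3p was higher with 0.058 (0.040 to 0.076). miR-27b-3p was higher with 0.048 (0.029 to 0.067). miR-23b-3p had -0.031 (-0.043 to -0.018), a difference that no longer passed with DESeq2 size factors (exact binomial adjusted p = 0.070, against a range of 3.10e-09 to 0.070 over its 7 alternatives). miR-27a-3p had 0.0071 (-0.00065 to 0.015), which did not pass (adjusted p = 0.097) but passed with TMM factors and DESeq2 size factors and changed sign when miR-31-5p was left out of the total (range of the exact binomial adjusted p 7.48e-10 to 0.740 over 7 alternatives). The median absolute log2 ratio of the 59 names averaging at least 10000 counts was 0.053, so the guides moved about as much as other names at their level.

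The passengers varied more. miR-27a-5p was lower in replicate 2 with a log2 ratio of -0.99 (-1.41 to -0.57) and miR-27b-5p with -0.57 (-1.02 to -0.14). miR-23b-5p was higher with 1.08 (0.39 to 1.80). miR-23a-5p had 0.38 (-0.78 to 1.57) and did not pass (exact binomial adjusted p = 0.629). Across names in both libraries the log2 ratio had an SD of 2.47 for mean counts of 10 to 30, 1.71 for 30 to 100 and 1.04 for 100 to 300, so all of these lay within the ordinary spread at their abundance.

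**Figure D5:**
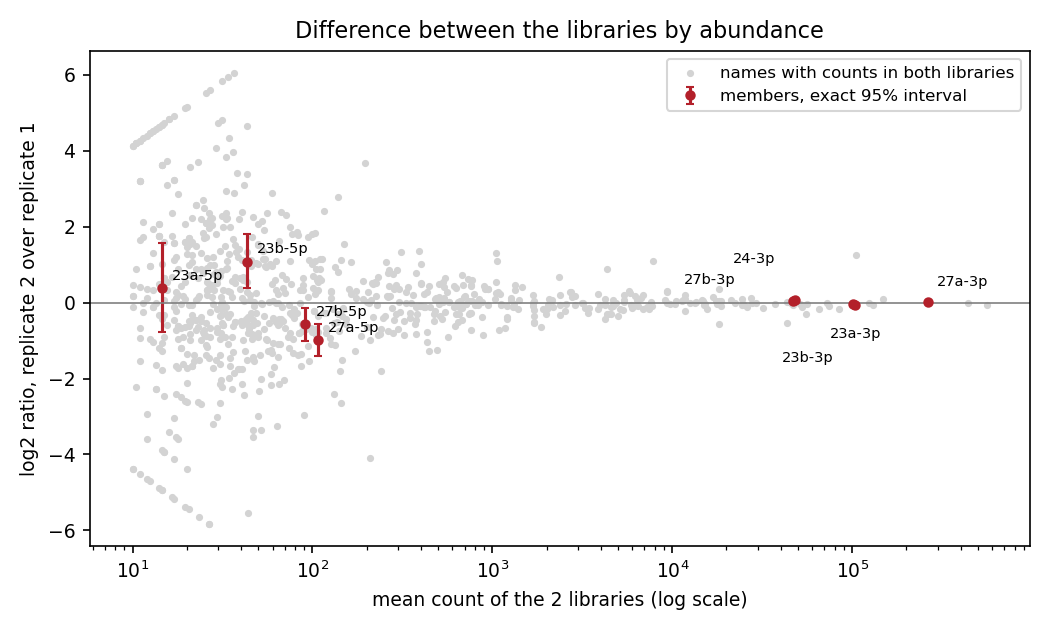
Log2 ratio of replicate 2 over replicate 1 against the mean count on a log axis, for names with counts in both libraries and a mean of at least 10 (grey) and the 9 names of the miR-23/27/24 clusters (red, exact 95% intervals). The 5 guides lie close to 0, and the 4 passengers, at lower counts, range from -0.99 to 1.08 within the grey cloud.

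Few other names with a sequence carried the seeds of these guides. A sequence was at hand for 1231 of the 1477 recorded names, so the rest, miR-23b-3p among them, could not be checked. No other name with a sequence held the miR-23a-3p seed. In the sequence table the miR-27 seed was held by miR-27a-3p and miR-27b-3p only, and the miR-24-3p seed also by miR-5124b (33 and 132 counts), miR-6369 (0 and 25), miR-6413 (0 and 20) and miR-6410 (0 and 1). Among names with a sequence, miR-24-3p thus supplied nearly all counts with its seed. miR-128-3p, a miRNA best known from brain, has a seed equal to bases 3 to 9 of miR-27a-3p, and had 190 counts in replicate 1 and 211 in replicate 2. The names on the strand opposite to miR-24 were rare: miR-3074-1-3p had 17 and 21 counts, and miR-3074-5p had 23 counts in replicate 1 and 0 in replicate 2, where up to 0.728 CPM is allowed.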

How the data were processed

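miRNAs were counted in 2 libraries of 1 group. For each library the authors deposited a table without a header, which pairs names of mature miRNAs with raw counts of 1 or more, not normalised. The submitters' processing notes name cutadapt, Novoalign and mm10, without versions. The miRNA reference and the handling of PCR copies, of reads matching several names and of chimeric reads are not given in the sources used here. Names absent from a table were set to 0. Rows that name no miRNA (0.00265% and 0.000218% of counts) were left out.

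CPM used each library's miRNA total. Ratios were taken within each library and given as mean ± SD. Intervals were Wilson or exact (Clopper-Pearson), or Wald on the log scale for ratios of ratios. Exact two-sided binomial tests compared libraries and arms across the whole table, adjusted by Benjamini-Hochberg, with 0.05 as the threshold. They were tested on simulated counts that varied by counting error only, apart from set differences. That check does not cover the wider spread between these libraries. With 1 group no edgeR contrast was fitted. edgeR 4.0.16 and DESeq2 1.42.0 (R 4.3.3) supplied scaling factors as alternatives. Other steps used Python 3.11.15, numpy 2.4.6, pandas 2.3.3, scipy 1.17.1 and matplotlib 3.10.9. The share and CPM of the 9 names, the guide ratios, the 3p shares of the 4 hairpins and the differences between the libraries were recomputed under those of other scalings, totals, pseudocounts, count minimums and thresholds that apply to them. All but the last were also recomputed without either library. Passenger ratios, ratios of ratios, and counts over all pairs and hairpins were not.

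All 9 names are described, with the passengers of the miR-24 hairpins, the miR-3074 names, names sharing a seed, miR-128-3p and the name nearest in level to each guide. miR-31-5p is named for a scaling alternative. The miR-19 pair was chosen after its values were seen. The names, lists and tests were chosen with earlier results of these data known.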

Additional observations from a re-analysis of the deposited data

How the results depend on the processing

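The share of the 9 names was 16.6% when miR-31-5p was left out of the total and 15.8% when names with numbers from 2000 up were, both of which follow from the smaller total, and 14.31% with the miR-24 passengers added. The number of names differing between the libraries was 254 among names averaging at least 100 counts, a smaller set, and 441 with a 2-fold ratio also required, a setting under which 1 of the 9 names (miR-23b-5p) was left. The log2 ratio of miR-27a-3p was -0.0016 in a total without miR-31-5p, against 0.0071. All cluster and family ratios moved by less than 1 SD under pooled counts, added counts and, where miR-24-3p was not involved, summed arms. These settings could hardly move them. A pooled ratio lies between the library values, and added counts and passengers are few beside the guides. The arm calls held under every setting tried, but with so few passenger counts beside the guides these settings could hardly change them either. Arms could not be summed for the number of the 9 names differing, since the names then merge.

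Leaving out each library gave 14.24% to 14.29% for the share, 2.48 to 2.49 for a over b, 1.01 to 1.03 for miR-23a-3p over miR-23b-3p, 5.58 to 5.74 for miR-27a-3p over miR-27b-3p, 2.49 to 2.61 for miR-27a-3p over miR-23a-3p, 0.448 to 0.473 for miR-27b-3p over miR-23b-3p, 0.227 to 0.244 and 0.153 to 0.158 for miR-24-3p over the miR-23 and miR-27 guides, and 3p shares of 99.984% to 99.988% (miR-23a), 99.943% to 99.973% (miR-23b), 99.945% to 99.973% (miR-27a) and 99.761% to 99.845% (miR-27b). With 2 libraries, leaving 1 out returns the value of the other. These ranges therefore repeat the values of the single libraries and are no further check. Of the guide to passenger ratios, those of miR-23b (3760 in replicate 1 and 1741 in replicate 2) and miR-27a (1823 and 3632) differed most between the libraries. Passengers with under 100 counts limit what can be said of arms. No paired analysis was possible because all samples belong to 1 group.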
